A study of Heterocephalus glaber with 215 samples.

Results

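The ovaries of 5 breeding and 6 non-breeding naked mole-rat females were compared by bulk RNA sequencing. They are 11 of the 213 naked mole-rat libraries used here, and the ovary library of a sixth breeder, BF_1816, was left out of the comparison as the study left it out. Breeders (BF) were females taken from their natal colony and paired with an unrelated male. They were sampled weeks after the end of the last pregnancy, once the mate had been removed, and their individual reproductive histories were not linked to libraries here. Non-breeders (NF) were female litter siblings of the paired animals, males or females, that stayed in the natal colony. The labels link no BF to an NF by litter. The labels name no altered allele and no agent in either group, and mean age was 3.5 ± 0.2 years in BF and 3.4 ± 0.6 years in NF (SD, n = 5 and 6). Breeding status, life outside the natal colony and recent pregnancy cannot be told apart in this design.

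In naked mole-rat colonies only the queen breeds, and the ovaries of her female colony mates stay quiescent. Growth of ovarian follicles depends on granulosa cells, which surround the oocyte and, under follicle-stimulating hormone, convert androgens from the neighbouring theca cells into oestrogen through aromatase. Granulosa cells also secrete inhibins and activins, which feed back on the pituitary. In whole ovaries, a lower level can reflect fewer cells of a type or less RNA per cell, and these cannot be told apart.

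The 11 libraries held 11486727 to 17013851 reads counted in genes, and the 10 most abundant genes took 5.07% to 9.03% of them. The tissue label was checked on the egg coat gene ZP3. It was at 76.0 to 114 CPM in BF ovaries and 104 to 210.1 CPM in NF ovaries (CPM, reads of a gene per 1000000 counted reads after TMM scaling). Its mean was at most 0.287 CPM in any of the 9 other tissues of the counts table, which has no liver. The granulosa gene FOXL2 was at 86.2 to 126 CPM in BF ovaries and 82.6 to 98.8 CPM in NF ovaries. CYP19A1, given as a marker of granulosa cells, was nearly absent from NF ovaries. Libraries stood apart within both groups. In BF_6841 the genes higher in breeders lay low, with the lowest of the 5 BF values for 27 of 46 such genes, and NF_3439 and NF_4060 held the highest summed levels of ciliated and oviduct epithelium markers.

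The ovaries of breeders carried far more RNA for the granulosa genes CYP19A1, INHA, INHBA and SERPINE2 than those of non-breeding females. The other genes higher in breeders included GLDN, KCNK2, CA3, GREB1 and PROKR2. Genes lower in breeders included complement factor D (CFD), the extracellular superoxide dismutase SOD3 and the enzyme QPRT. Of 13717 genes tested, 61 passed an adjusted p below 0.01 by edgeR (0.445%), 46 of them higher in BF (0.335%) and 15 lower in BF (0.109%). In all 61 the BF and NF values did not overlap, which was the case for 252 of all tested genes in the higher direction (1.84%) and 147 in the lower direction (1.07%). Among the 46 higher genes 36 differed by more than 2-fold and 17 by more than 4-fold. Among the 15 lower genes these numbers were 14 and 6. The number of genes passing depended on single libraries. It was 17 without NF_2411, 23 without BF_4772, 24 without BF_1090, 29 without BF_4121, 38 without BF_6382, 38 without NF_3605 and 115 without BF_6841. DESeq2's Wald test gave 507 genes, 295 higher and 212 lower in BF. The number was 39 with BF_1816 kept and 143 with NF_3439 and NF_4060 both left out, a choice made after seeing the data.

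Per-library levels are given below for BF_1090, BF_4121, BF_4772, BF_6382 and BF_6841 in that order, and for NF as the lowest, median and highest of the 6 libraries. Fold changes are log2 values of BF over NF with their standard error (SE), and adjusted p-values come from edgeR's quasi-likelihood test over all tested genes.

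Aromatase, encoded by CYP19A1, makes oestrogen from androgen. Its level was 149, 36.6, 99.8, 138 and 1.62 CPM in BF ovaries, against 0, 0 and 0.0604 CPM in NF ovaries. All reads but 1 came from BF ovaries, with 5753 reads in BF and 1 read in NF (in NF_3439). The ratio of the pooled levels was 6950, with a 95% interval from 1250 to 274000 that covers counting error only. BF_6841 was far below the other 4 BF ovaries but still held 27 reads. The adjusted p was 0.00203 by edgeR and 0.0609 with limma voom.

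INHA encodes the alpha subunit that turns activin subunits into inhibin, the feedback inhibitor of follicle-stimulating hormone. INHA was at 1333, 1207, 849.9, 1972 and 447 CPM in BF ovaries, against 24.6, 32.3 and 39.5 CPM in NF ovaries. Even the lowest BF ovary, BF_6841, lay more than 10-fold above the highest NF ovary (log2 fold change 5.17 ± 0.34, adjusted p = 4.31e-05). INHBA, the beta A subunit shared by inhibin A and activin A, was at 100.4, 37.1, 178, 124 and 19.6 CPM in BF ovaries, against 7.22, 10.8 and 14.4 CPM in NF ovaries. BF_6841 lay closest to NF without reaching it (log2 fold change 3.12 ± 0.49, adjusted p = 0.00934, or 0.0469 with limma voom), and INHBA passed in 1 of the 11 fits that each left out a library. SERPINE2, an extracellular inhibitor of thrombin and plasminogen activators, was at 2931, 2296, 3007, 3934 and 2274 CPM in BF ovaries, against 249.6, 416 and 641 CPM in NF ovaries. The BF ovaries were close to each other and well separated from NF (log2 fold change 2.77 ± 0.22, adjusted p = 0.000107).

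**Figure D1:**
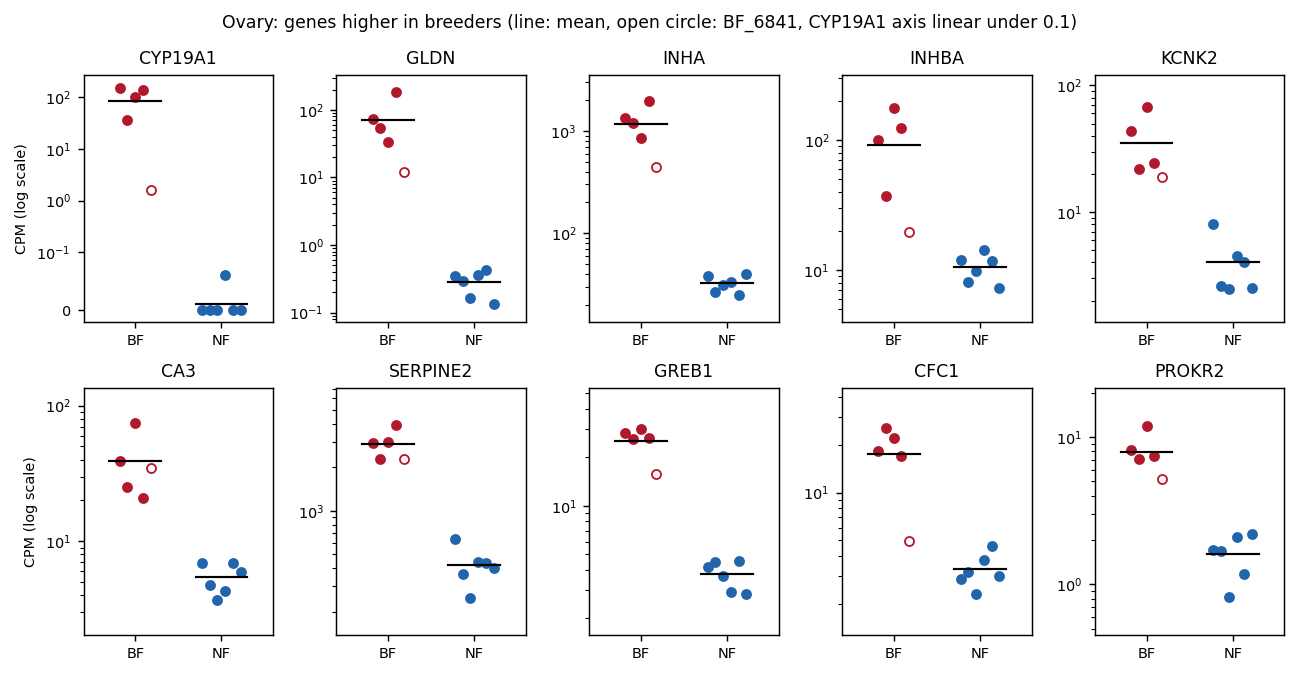
Level of 10 genes higher in breeders, in CPM on a log axis (linear under 0.1 for CYP19A1), with 1 point per ovary library, 5 BF left and 6 NF right, and a line at each group mean. The open circle is BF_6841, which lies lowest of BF for CYP19A1, GLDN, INHA, INHBA, KCNK2, SERPINE2, GREB1, CFC1 and PROKR2, and no BF point falls into the NF range.

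Of the 11 tested members of the wider granulosa list, 4 passed higher, namely CYP19A1, INHA, INHBA and SERPINE2, none passed lower, and 9 were higher and 1 lower at unadjusted p below 0.05 (median log2 fold change 0.74). For comparison, 1158 of all tested genes (8.44%) were higher and 1021 (7.44%) lower at that unadjusted level, and the median of all tested genes was -0.02. Of the 13717 tested genes, 6301 had positive and 7416 negative fold changes. FSHR, the receptor for follicle-stimulating hormone, was at 3.61 to 8.40 CPM in BF ovaries and 2.21 to 5.23 CPM in NF ovaries (log2 fold change 0.74 ± 0.30, adjusted p = 0.238). The ovarian transcription factor FOXL2 (log2 fold change 0.28 ± 0.10, adjusted p = 0.176), the oestradiol-making enzyme HSD17B1 (log2 fold change 0.49 ± 0.12, adjusted p = 0.0515), the nuclear receptor NR5A2 (log2 fold change 1.39 ± 0.32, adjusted p = 0.046) and the activin-binding protein FST (log2 fold change 0.51 ± 0.21, adjusted p = 0.25) did not pass. AMH, the hormone of small growing follicles, ran the other way at 171 to 232 CPM in BF ovaries and 236 to 408 CPM in NF ovaries (log2 fold change -0.69 ± 0.15, adjusted p = 0.0373), and its receptor AMHR2 did not pass (log2 fold change -0.25 ± 0.12, adjusted p = 0.338). INHBB was not analysed here. The summed level of the list was 3399 to 6803 CPM in BF ovaries and 823 to 1511 CPM in NF ovaries, with no overlap. INHA and SERPINE2 carried that separation, since the other 9 members summed to 678 to 982.3 CPM in BF ovaries and 542 to 830.9 CPM in NF ovaries, which overlap. The 4 genes passing became 2 without NF_2411, without NF_3439 or without NF_3439 and NF_4060 together. Of the 11 fits that each left out a library, INHA and SERPINE2 passed in 11, CYP19A1 in 9 and INHBA in 1.

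Among 13 tested inhibin, activin and BMP ligands, INHA and INHBA passed higher, and 3 were higher and 4 lower at unadjusted p below 0.05 (median log2 fold change 0.07). The ligand BMP4 stood at log2 fold change 0.95 ± 0.20, adjusted p = 0.0341. All 9 tested antagonists of these ligands had positive fold changes. None of them passed, and 3 were higher and 0 lower at unadjusted p below 0.05 (median log2 fold change 0.40). The number higher ran from 1 without BF_4772 to 5 without BF_4121 or NF_4060. Of 14 receptors and SMADs 0 passed, and 1 was higher and 0 lower at unadjusted p below 0.05 (median log2 fold change 0.01). The EGF-CFC family protein CFC1, a co-receptor of the related ligand Nodal, was at 18.4, 25.3, 22.1, 17.0 and 4.93 CPM in BF ovaries, against 2.30, 3.08 and 4.65 CPM in NF ovaries. BF_6841 stood apart from the other BF ovaries and only just above NF (log2 fold change 2.41 ± 0.34, adjusted p = 0.00435, or 0.0352 with limma voom), and CFC1 passed in 3 of the 11 fits with a library left out.

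GREB1, an oestrogen-induced gene in human breast cancer cells, was at 28.5, 26.0, 30.0, 26.2 and 15.7 CPM in BF ovaries, against 2.85, 3.91 and 4.56 CPM in NF ovaries. Its 4 highest BF ovaries lay within 26.0 to 30.0 CPM, with BF_6841 below them (log2 fold change 2.74 ± 0.20, adjusted p = 4.7e-05). AGTR2, the type 2 receptor of angiotensin II, was at 3.50, 4.02, 3.02, 2.26 and 2.95 CPM in BF ovaries, against 0.397, 0.851 and 1.07 CPM in NF ovaries (log2 fold change 2.00 ± 0.28, adjusted p = 0.00402). Even its lowest BF ovary used had more than 2-fold the level of the highest NF ovary, but BF_1816 was at 0.891 CPM, and with it kept the adjusted p was 0.0292. ENPEP, the aminopeptidase that trims angiotensin II, was at 102 ± 30.5 CPM in BF ovaries and 40.2 ± 5.33 CPM in NF ovaries (SD, n = 5 and 6, log2 fold change 1.34 ± 0.19, adjusted p = 0.00401, or log2 fold change 1.76 and adjusted p = 0.0229 with BF_1816 kept). These were the 2 of 10 tested angiotensin pathway genes that passed, and in the list 3 were higher and 2 lower at unadjusted p below 0.05 (median log2 fold change -0.10). NPR2, the receptor of C-type natriuretic peptide, which in mouse follicles holds the oocyte in meiotic arrest, was at 162 ± 20.9 CPM in BF ovaries and 87.5 ± 15.2 CPM in NF ovaries (SD, n = 5 and 6, log2 fold change 0.89 ± 0.13, adjusted p = 0.00477, or 0.0304 with BF_1816 kept). Among 7 tested steroid receptors 0 passed and 2 were higher and 1 lower at unadjusted p below 0.05 (median log2 fold change -0.09). Of 15 tested genes of gonadotropin and prolactin signalling 0 passed and 4 were higher and 4 lower at unadjusted p below 0.05 (median log2 fold change -0.17). PRLR was not analysed here.

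GLDN encodes gliomedin, which clusters sodium channels at nodes of peripheral axons. GLDN was at 73.6, 54.6, 33.0, 185 and 12.1 CPM in BF ovaries, against 0.132, 0.320 and 0.423 CPM in NF ovaries. No NF ovary exceeded 0.423 CPM, and BF_6841 was the lowest BF ovary (log2 fold change 7.91 ± 0.76, adjusted p = 0.000813, or 0.0182 with limma voom). KCNK2, a background potassium channel opened by stretch, was at 43.4, 21.9, 67.4, 24.5 and 18.8 CPM in BF ovaries, against 2.46, 3.32 and 7.99 CPM in NF ovaries. The highest NF library was NF_0525, still below every BF ovary used (log2 fold change 3.12 ± 0.41, adjusted p = 0.00361). The library left out, BF_1816, was at 1.44 CPM, and with it kept the adjusted p was 0.0445. PROKR2, a receptor of prokineticins, was at 8.20, 7.12, 11.99, 7.40 and 5.23 CPM in BF ovaries, against 0.820, 1.71 and 2.19 CPM in NF ovaries. Every BF value lay more than 2-fold above the highest NF value (log2 fold change 2.28 ± 0.28, adjusted p = 0.00203). GABRA3, a subunit of the GABA-A receptor, was at 1.54, 2.84, 3.75, 4.14 and 1.74 CPM in BF ovaries, against 0.246, 0.317 and 0.861 CPM in NF ovaries. It was low in both groups (log2 fold change 2.74 ± 0.38, adjusted p = 0.00402), and it was the only 1 of 19 tested GABA and glutamate receptor genes to pass, while over the list 2 were higher and 4 lower at unadjusted p below 0.05 (median log2 fold change -0.11). CBLN1, a secreted organiser of synapses, was at 1.62 to 8.11 CPM in BF ovaries and 0.164 to 0.676 CPM in NF ovaries (log2 fold change 3.33 ± 0.42, adjusted p = 0.0023). The kinesin KIF5C (log2 fold change 1.83 ± 0.25, adjusted p = 0.00401, or 0.0275 with BF_1816 kept) and the semaphorin receptor PLXNC1 (log2 fold change 1.56 ± 0.18, adjusted p = 0.0019, or 0.0119 with BF_1816 kept) also rose. With BF_1816 kept, the log2 fold change was larger for both, at 2.56 for KIF5C and 1.97 for PLXNC1.

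CA3, a cytosolic carbonic anhydrase of low activity, was at 39.3, 24.9, 74.8, 21.0 and 34.5 CPM in BF ovaries, against 3.69, 5.35 and 6.93 CPM in NF ovaries. Here BF_6841 lay within the other BF ovaries (log2 fold change 2.84 ± 0.32, adjusted p = 0.00124, or 0.0128 with BF_1816 kept, which was at 6.93 CPM), and a membrane-bound carbonic anhydrase, CA12, rose as well (log2 fold change 2.23 ± 0.30, adjusted p = 0.00386). XYLT1, which starts the sugar chains of proteoglycans, was at 251 ± 50.6 CPM in BF ovaries and 107 ± 27.5 CPM in NF ovaries (SD, n = 5 and 6, log2 fold change 1.23 ± 0.19, adjusted p = 0.00642). CHPF, which extends chondroitin chains (log2 fold change 0.95 ± 0.15, adjusted p = 0.00714), the metalloprotease ADAMTS7 (log2 fold change 0.90 ± 0.12, adjusted p = 0.00296), the lysosomal heparan sulphate enzyme HGSNAT (log2 fold change 1.35 ± 0.19, adjusted p = 0.00401, or 0.0504 with BF_1816 kept) and CHST8, a sulphotransferase that acts on sugars of luteinising hormone (log2 fold change 1.66 ± 0.26, adjusted p = 0.00748), were likewise higher. Of 26 tested genes for matrix proteins and their crosslinking enzymes, 0 passed and 8 were higher and 4 lower at unadjusted p below 0.05 (median log2 fold change 0.10). The crosslinking enzyme LOX came closest, with log2 fold change 1.05 ± 0.23, adjusted p = 0.0368. TRIB2, a pseudokinase that steers protein degradation, was at 165, 123, 194, 167 and 127 CPM in BF ovaries, against 27.6, 41.7 and 54.3 CPM in NF ovaries. Every BF value lay more than 2-fold above the highest NF value (log2 fold change 1.93 ± 0.18, adjusted p = 0.000348).

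PRDX2 and SOD3, both antioxidant enzymes, changed in opposite directions. PRDX2, a cytosolic peroxidase, was at 253, 270.3, 237, 210.1 and 188 CPM in BF ovaries, against 118, 131.5 and 153 CPM in NF ovaries (log2 fold change 0.80 ± 0.11, adjusted p = 0.00361, or log2 fold change 1.26 and adjusted p = 0.0593 with BF_1816 kept). SOD3, which removes superoxide outside the cell, was at 9.39, 5.87, 5.95, 12.1 and 9.56 CPM in BF ovaries, against 30.2, 52.4 and 94.6 CPM in NF ovaries (log2 fold change -2.65 ± 0.32, adjusted p = 0.00203). The gap was wide for SOD3 and narrow for PRDX2, with no overlap in either. These were the only 2 of 26 tested antioxidant genes to pass, and 3 were higher and 6 lower at unadjusted p below 0.05 (median log2 fold change 0.04). GCLC, the rate-limiting enzyme of glutathione synthesis, just missed the threshold (log2 fold change 0.57 ± 0.10, adjusted p = 0.0116).

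The other genes higher in breeders were LIPK, DLX5, TMEM200A, C14orf132, DDX26B, MYRIP, SPINK2, SLC4A3, DYSF, WDR86, CLEC14A, TMSB10, BTG1, CBFB, MARCKSL1, ARNT2, HN1, CTSV, PRKAG2, IDE and ANXA5. Their log2 fold changes ran from 0.63 for ANXA5, a phospholipid-binding protein, to 3.99 for LIPK, a lipase with 0.721 to 3.64 CPM in BF ovaries and 0 to 0.397 CPM in NF ovaries. Among them are the transcription factor DLX5 (log2 fold change 2.26 ± 0.34, adjusted p = 0.00692, or 0.0495 with BF_1816 kept), the RUNX partner CBFB (log2 fold change 1.00 ± 0.13, adjusted p = 0.00275) and the actin-binding peptide gene TMSB10 (log2 fold change 1.05 ± 0.11, adjusted p = 0.000813), whose reads could be undercounted where near-identical copies exist.

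**Figure D2:**
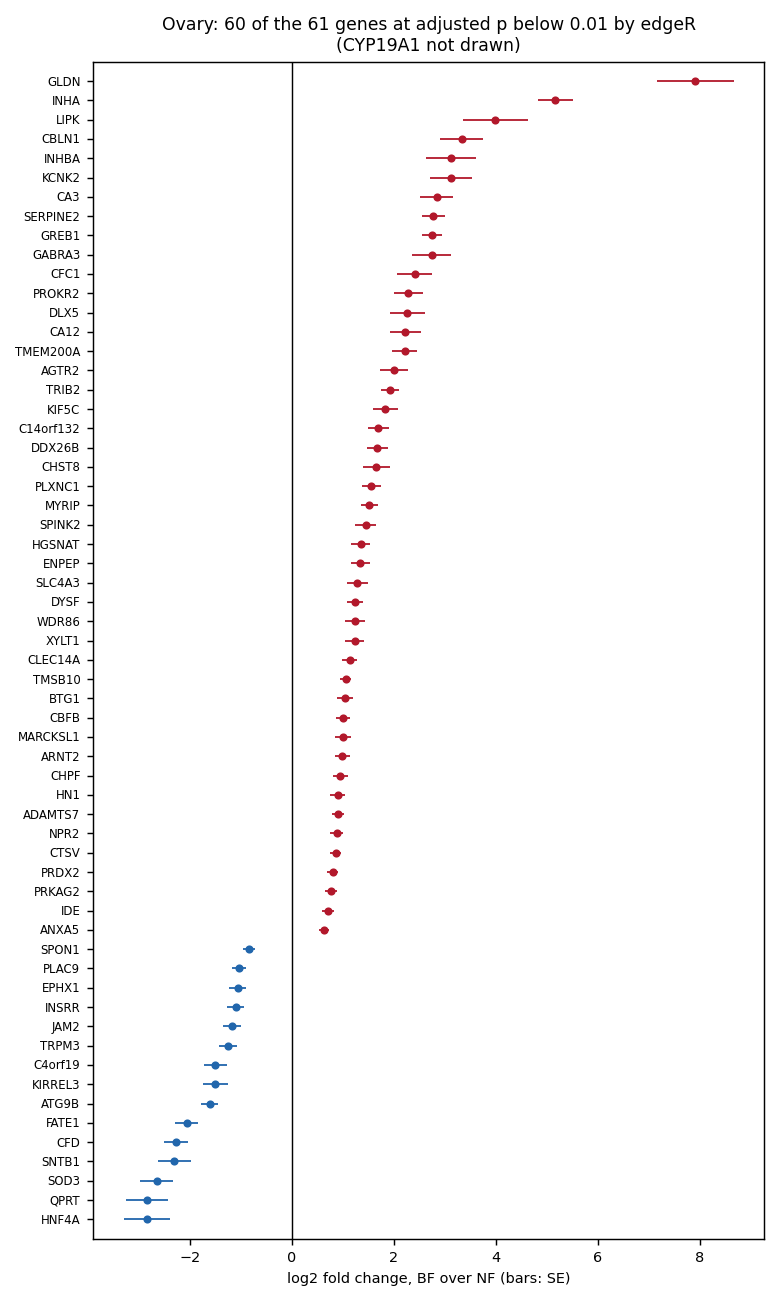
Log2 fold change of BF over NF with its SE (bars) for 60 of the 61 genes at adjusted p below 0.01 by edgeR, higher genes above and lower genes below. CYP19A1 is not drawn because its fitted value depends on the prior count, and the values run from 7.91 for GLDN to -2.84 for HNF4A.

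Among the genes lower in breeders, complement factor D (CFD), the protease that starts the alternative complement pathway, was at 21.0, 19.1, 19.6, 31.8 and 33.2 CPM in BF ovaries, against 93.6, 102 and 184 CPM in NF ovaries. Each NF ovary exceeded every BF ovary by a wide margin (log2 fold change -2.27 ± 0.23, adjusted p = 0.000813). Of 15 tested complement genes, CFD alone passed, and 0 were higher and 10 lower at unadjusted p below 0.05 (median log2 fold change -0.61). The number lower was 6 without BF_1090, BF_4121, BF_4772 or NF_4060. The terminal component C7 (log2 fold change -0.99, adjusted p = 0.067) was among those that did not pass. The summed level of the list was 1565 to 3662 CPM in BF ovaries and 2976 to 10970 CPM in NF ovaries, and BF_6841 reached into the NF range.

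QPRT, which channels tryptophan breakdown into NAD, was at 1.54, 1.98, 1.88, 1.38 and 2.53 CPM in BF ovaries, against 2.96, 15.8 and 19.2 CPM in NF ovaries. A single NF ovary, NF_3439, was near the BF level (log2 fold change -2.84 ± 0.41, adjusted p = 0.00483, or 0.0485 with limma voom), and QPRT passed in 4 of the 11 fits with a library left out. SNTB1, a syntrophin that anchors membrane proteins to dystrophin, was at 10.8, 9.10, 6.69, 9.28 and 10.9 CPM in BF ovaries, against 23.6, 37.4 and 78.6 CPM in NF ovaries (log2 fold change -2.30 ± 0.32, adjusted p = 0.00402, or 0.0136 with limma voom). NF ovaries spread widely for SNTB1, but all lay above BF. ATG9B, a membrane protein of autophagy, was at 13.7, 11.8, 15.6, 11.3 and 13.6 CPM in BF ovaries, against 28.0, 39.9 and 52.6 CPM in NF ovaries (log2 fold change -1.61 ± 0.17, adjusted p = 0.000813). BF values of ATG9B stayed within a narrow band below all NF values.

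EPHX1, the microsomal epoxide hydrolase, was at 186, 174, 214, 216 and 279.6 CPM in BF ovaries, against 301, 453 and 564 CPM in NF ovaries. BF_6841 was highest of BF and just under the lowest NF ovary (log2 fold change -1.07 ± 0.16, adjusted p = 0.00642, or log2 fold change -1.21 and adjusted p = 0.0158 with BF_1816 kept). The adhesion protein JAM2 (25.4 to 47.6 CPM in BF ovaries and 58.2 to 99.3 CPM in NF ovaries, log2 fold change -1.18 ± 0.18, adjusted p = 0.00696), the cation channel TRPM3 (4.87 to 9.41 CPM in BF ovaries and 12.6 to 19.8 CPM in NF ovaries, log2 fold change -1.26 ± 0.18, adjusted p = 0.00477, or 0.0137 with BF_1816 kept), the insulin receptor-related receptor INSRR (10.3 to 15.9 CPM in BF ovaries and 22.7 to 35.0 CPM in NF ovaries, log2 fold change -1.10 ± 0.17, adjusted p = 0.00714, or 0.0212 with BF_1816 kept) and C4orf19 (3.10 to 6.19 CPM in BF ovaries and 9.00 to 15.0 CPM in NF ovaries, log2 fold change -1.50 ± 0.23, adjusted p = 0.00714) showed the same separation. SPON1, PLAC9, KIRREL3, FATE1 and HNF4A completed the 15, with log2 fold changes from -0.85 for the matrix protein SPON1 to -2.84 for the transcription factor HNF4A, which was at 0.342 to 0.962 CPM in BF ovaries and 1.45 to 7.30 CPM in NF ovaries.

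**Figure D3:**
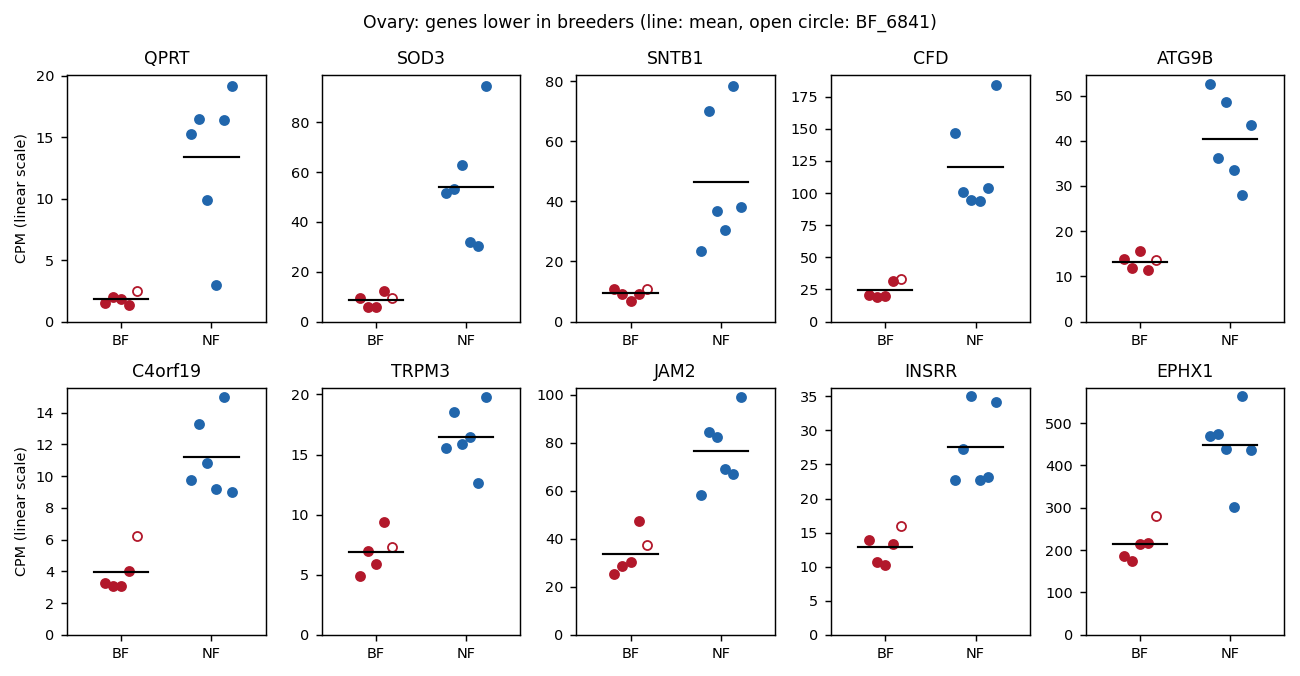
Level of 10 genes lower in breeders, in CPM on linear axes, with 1 point per ovary library, 5 BF left and 6 NF right, and a line at each group mean. The open circle is BF_6841. No BF point reaches the NF range, and for QPRT the lowest NF library is at 2.96 CPM against a highest BF value of 2.53 CPM.

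Genes upstream of aromatase in the steroid pathway did not pass. Of 26 tested genes of steroid synthesis CYP19A1 alone passed, and 2 were higher and 7 lower at unadjusted p below 0.05 (median log2 fold change -0.27). CYP19A1 did not pass without NF_2411 or without NF_3439, the NF library that held its only NF read (adjusted p = 0.0387 by edgeR without NF_3439). Its log2 fold change ran from 11.8 to 13.2 over the 11 fits with a library left out. The number of steroid synthesis genes lower ran from 4 without BF_1090, BF_6382 or NF_3605 to 11 without NF_3439. HSD11B1, which regenerates active glucocorticoid, came closest among the genes with negative fold changes (log2 fold change -1.46 ± 0.24, adjusted p = 0.0106). STAR, which carries cholesterol into mitochondria, was at 157 to 1958 CPM in BF ovaries and 555 to 4614 CPM in NF ovaries (log2 fold change -1.67 ± 0.68, adjusted p = 0.253, with a log2 fold change of 0.74 when BF_1816 was kept), and CYP17A1, which makes androgen precursors, at 1991 to 13676 CPM in BF ovaries and 6989 to 25724 CPM in NF ovaries (log2 fold change -1.31 ± 0.50, adjusted p = 0.217). CYP11A1, which cuts the cholesterol side chain, was at 395 to 2268 CPM in BF ovaries and 459 to 3989 CPM in NF ovaries (log2 fold change -0.97 ± 0.57, adjusted p = 0.452). Of 28 tested genes of cholesterol supply 0 passed and 2 were higher and 1 lower at unadjusted p below 0.05 (median log2 fold change -0.12). SCARB1, the receptor that takes up high-density lipoprotein, stood at log2 fold change -2.11 ± 0.52, adjusted p = 0.0572, and DHCR7, the last enzyme of cholesterol synthesis, at log2 fold change 0.37, adjusted p = 0.0329. Of 8 tested theca and interstitial markers 0 passed and 0 were higher and 2 lower at unadjusted p below 0.05 (median log2 fold change -0.46). The number lower ran from 0 without BF_1090, BF_6382 or NF_3605 to 5 without NF_3439. Their summed level was 3394 to 19020 CPM in BF ovaries and 8590 to 35960 CPM in NF ovaries. BF_4121 and BF_6841 overlapped the NF range, and NF_3439 lay within the BF range.

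Oocyte markers were measured in both groups. All 18 tested had negative fold changes, 0 passed, and 0 were higher and 6 lower at unadjusted p below 0.05 (median log2 fold change -0.42). Over all 13717 tested genes, 7416 had negative fold changes. The number lower ran from 3 without BF_6382, NF_0525 or NF_3439 to 12 without NF_4060. The egg coat gene ZP3 was at 76.0 to 114 CPM in BF ovaries and 104 to 210.1 CPM in NF ovaries (log2 fold change -0.76 ± 0.20, adjusted p = 0.07), the oocyte growth factor GDF9 at 51.8 to 57.7 CPM in BF ovaries and 46.9 to 93.9 CPM in NF ovaries (log2 fold change -0.37 ± 0.16, adjusted p = 0.271) and BMP15 at 29.6 to 44.7 CPM in BF ovaries and 41.8 to 75.4 CPM in NF ovaries (log2 fold change -0.47 ± 0.18, adjusted p = 0.218). The summed level was 726 to 1080 CPM in BF ovaries and 580.1 to 1568 CPM in NF ovaries, with NF_4060 below every BF ovary. OOEP was at 0. Of 12 tested meiosis genes 0 passed and 0 were higher and 0 lower at unadjusted p below 0.05 (median log2 fold change -0.27).

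Markers of other cells in the ovary differed between libraries beside these results. Of 12 tested smooth muscle genes 0 passed and 8 were higher and 0 lower at unadjusted p below 0.05 (median log2 fold change 0.90). Their sum was 2278 to 7455 CPM in BF ovaries and 1818 to 3896 CPM in NF ovaries, with BF_6841 inside the NF range. Immediate early genes, which respond within minutes to a stimulus, had 0 of 22 passing, and 15 were higher and 0 lower at unadjusted p below 0.05 (median log2 fold change 2.19). Their sum was 4470, 998.6, 7929, 9707 and 1650 CPM in BF ovaries and 752.1 to 3260 CPM in NF ovaries, so 3 of the 5 BF ovaries lay above every NF ovary and 2 lay among them. EGR4 came closest to the threshold (log2 fold change 5.24 ± 0.95, adjusted p = 0.0192).

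Most immune and lymphatic markers had negative fold changes, and none passed. Of 12 macrophage genes 0 passed and 0 were higher and 4 lower at unadjusted p below 0.05 (median log2 fold change -0.36), with a sum of 79.1 to 128 CPM in BF ovaries and 108 to 186 CPM in NF ovaries. Of 6 tested lymphocyte genes 0 passed and 0 were higher and 2 lower at unadjusted p below 0.05 (median log2 fold change -0.50). The 11 lymphocyte genes in the counts table summed to 10.7 to 15.0 CPM in BF ovaries and 12.5 to 20.2 CPM in NF ovaries. The 1 tested mast cell gene was lower at unadjusted p below 0.05 and did not pass. Of 5 lymphatic endothelial genes 0 passed and 0 were higher and 2 lower at unadjusted p below 0.05 (median log2 fold change -0.74), with a sum of 78.1 to 209 CPM in BF ovaries and 195 to 402 CPM in NF ovaries. Of 13 blood endothelial genes 0 passed and 1 was higher and 2 lower at unadjusted p below 0.05 (median log2 fold change -0.05), with a sum of 514 to 876 CPM in BF ovaries and 556 to 681 CPM in NF ovaries. Among 8 adipocyte markers CFD, a complement gene that fat cells also make, passed lower and 1 was higher and 3 lower at unadjusted p below 0.05 (median log2 fold change 0.30). The sum over the 12 members in the counts table ran the other way from that median, with 71.5 to 115 CPM in BF ovaries and 163 to 292 CPM in NF ovaries. CFD itself, at the levels given above, makes up much of that gap, and the sum without CFD was not computed.

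Ciliated and oviduct epithelium markers had 0 of 12 passing, and 0 were higher and 1 lower at unadjusted p below 0.05 (median log2 fold change -0.68). The sum was 207 to 509.5 CPM in BF ovaries and 207 to 1072 CPM in NF ovaries, highest in NF_3439 and NF_4060, and without those libraries the median log2 fold change was 1.04. Surface epithelium and mesothelium markers had 0 of 11 passing, and 1 was higher and 1 lower at unadjusted p below 0.05 (median log2 fold change -0.29), with a sum of 243 to 542 CPM in BF ovaries and 203 to 719 CPM in NF ovaries and a median of 0.38 without NF_3439 and NF_4060. The 3 tested red blood cell and 6 tested skeletal muscle genes had 0 passing, with sums of 39.6 to 67.0 CPM in BF ovaries and 37.5 to 81.2 CPM in NF ovaries for red blood cells and 84.5 to 189 CPM in BF ovaries and 109.8 to 305 CPM in NF ovaries for skeletal muscle. The part of these cell types in the status differences was not tested.

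**Figure D4:**
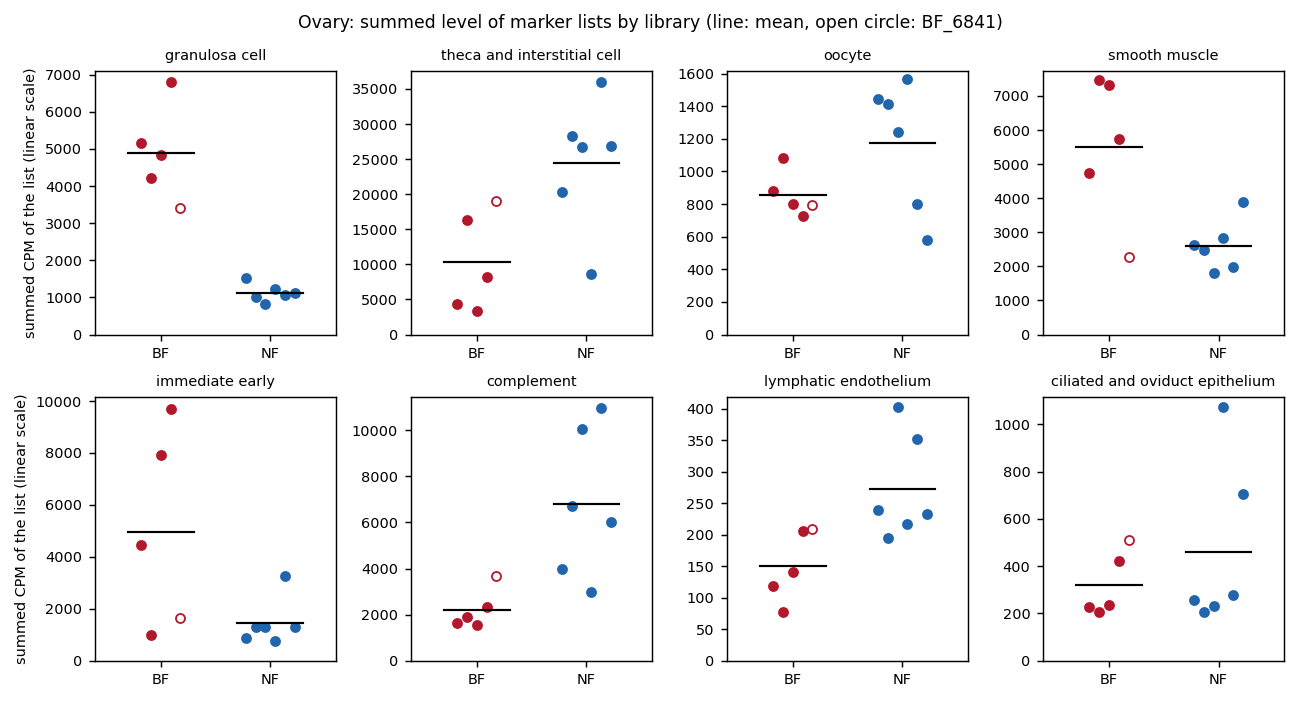
Summed CPM of the members of 8 gene lists found in the counts table, tested or not, on linear axes. There is 1 point per ovary library, 5 BF left and 6 NF right, and a line at each group mean. Granulosa sums do not overlap (3399 to 6803 CPM in BF, 822.7 to 1511 CPM in NF) but do so without INHA and SERPINE2 (678 to 982.3 CPM in BF, 542 to 830.9 CPM in NF), and the other 7 lists overlap. The open circle, BF_6841, lies within NF for theca, oocyte, smooth muscle, immediate early, complement, lymphatic and ciliated markers.

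Whether the ovarian differences were shared with other glands was tested with the adrenals of the same 11 females, and with the testes of breeding (BM) and non-breeding (NM) males. The status effect in ovary minus that in adrenal passed for 17 of 14138 genes (0.12%), 12 of which were among the 61 ovarian genes. CYP19A1 and FATE1 were at 0 CPM in all 11 adrenals, so the test could not decide whether their effects differ between the tissues. INHA was at 16.6 ± 2.65 CPM in BF adrenals and 15.9 ± 1.94 CPM in NF adrenals (SD, n = 5 and 6), and the difference between tissues was 5.10 (adjusted p = 3.28e-08). SERPINE2 (3.36, adjusted p = 5e-05), TRIB2 (2.20, adjusted p = 1.76e-05), KCNK2, TMEM200A, CA12, CBFB, MYRIP, IDE, PRDX2 and PLXNC1 also differed upward, and EPHX1 differed downward (-1.12, adjusted p = 0.00334).

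With the animal as a replicate block, 7 genes passed, among them INHA, SERPINE2 and TRIB2 (adjusted p = 1.2e-05, 0.00153 and 0.00153) and, in addition, GLDN (0.00582). The other 9 ovarian genes had adjusted p between 0.0104 (EPHX1) and 0.0524 (PLXNC1) under the block. The number of genes that differed from adrenal moved with single females, to 5 without NF_2411, 6 without BF_1090, 6 without BF_4772, 7 without BF_6382, 8 without BF_4121, 10 without NF_2969, 11 without NF_3605, 27 without NF_0525, 32 without NF_3439 and 62 without BF_6841. CHST8 rose in both glands, with 5.16 ± 3.33 CPM in BF adrenals and 0.783 ± 0.554 CPM in NF adrenals (SD, n = 5 and 6, adjusted p = 0.00866 by edgeR). C14orf132 rose in both as well (adrenal log2 fold change 1.87, adjusted p = 0.00866), while GREB1 in adrenal stood at 2.09 (adjusted p = 0.0115).

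Against testis, the status effects differed for 92 of 14911 genes (0.617%), 31 of them among the 61 ovarian genes. The differences were 9.00 for GLDN (adjusted p = 9.9e-07), 5.27 for INHA (adjusted p = 2.87e-08) and 3.06 for INHBA (adjusted p = 0.00613). CFD fell in BF ovaries but was at 229 ± 129 CPM in BM testes and 102 ± 41.3 CPM in NM testes (SD, n = 6 each), a difference between the effects of -3.43 (adjusted p = 0.0006). None of the 61 genes passed in testis itself. The number of differing genes was 34 without BF_4772, 43 without BM_1215, 43 without NM_6206, 44 without BF_1090, 44 without BM_6656, 44 without NF_2411, 45 without NM_6074, 48 without BM_3274, 49 without NF_2969, 55 without NM_0713, 59 without NM_1449, 60 without NF_3605, 159 without BM_1400, 192 without NF_3439, 194 without BF_6841 and 199 without BM_5982.

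**Figure D5:**
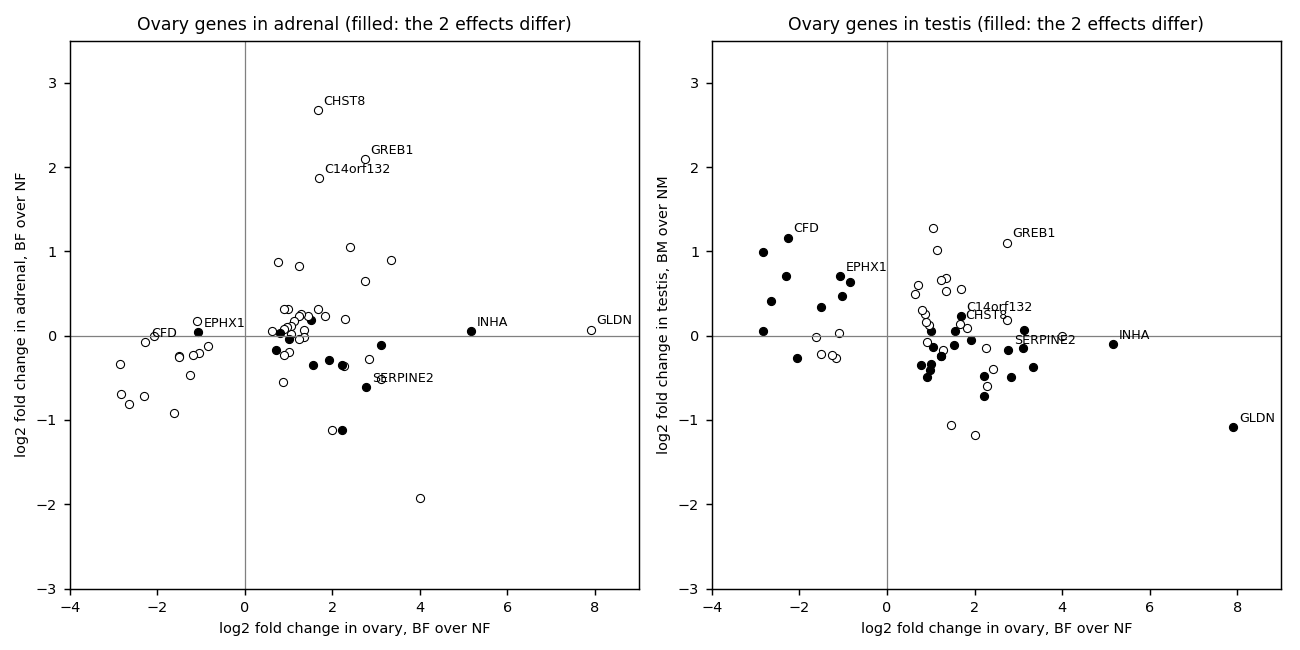
Log2 fold change of BF over NF in ovary (horizontal axes) against that in adrenal, BF over NF (left) or testis, BM over NM (right), for 60 of the 61 ovarian genes, CYP19A1 omitted. Filled points are genes whose effects differ between the tissues at adjusted p below 0.01 (INHA at 5.17 in ovary and 0.06 in adrenal), and CHST8, GREB1 and C14orf132 lie high in both ovary and adrenal.

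Levels were also measured across the 10 tissues of the counts table, which has no liver although the study sampled it. The ovary means pool both statuses, so the BF ovaries set much of the mean of genes higher in BF. The mean level of INHBA was 36.9 CPM in ovary and 4.09 CPM in heart, the next tissue, and that of SERPINE2 was 1201 CPM in ovary and 299 CPM in hypothalamus. INHA, given by status, was at 447 to 1972 CPM in BF ovaries and 24.6 to 39.5 CPM in NF ovaries, and averaged 656 ± 144 CPM in BM testes and 705 ± 211 CPM in NM testes (SD, n = 6 each). KCNK2 was highest in adrenal, at 319 CPM against 14.2 CPM in ovary.

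The 61 genes differed in how far they rested on single libraries. Passing in all 11 fits with 1 library left out were CA3, CTSV, DYSF, GLDN, GREB1, INHA, MYRIP, PLXNC1, PROKR2, SERPINE2, TMEM200A, TMSB10 and TRIB2 among the higher genes, and ATG9B, CFD and FATE1 among the lower genes. ANXA5, HN1, INHBA and KIRREL3 passed in 1 of the 11.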

How the data were processed

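Read counts per gene were deposited by the authors as a single table of 16339 gene rows for 215 naked mole-rat libraries, with no normalization. The authors made unstranded TruSeq libraries, aligned single-end reads (STAR 2.4.1d) and counted with HTSeq those placed uniquely. Overlapping genes and near-identical copies are therefore uncertain. Here the counts of 11 ovary libraries were tested in R 4.3.3 with edgeR 4.0.16 (filterByExpr, TMM scaling, robust quasi-likelihood F-test, Benjamini-Hochberg adjustment over all tested genes, threshold 0.01). No covariate was used, so litter and colony were not in the tests. The p-values judge each group difference against the spread between animals within groups, with the animals taken as independent. The ovary library BF_1816 was left out, as in the study, which used DESeq2. Differences of status effects between ovary and adrenal or testis were tested as interactions. Adrenal and ovary libraries came from the same females, and correlations of same-animal deviations ran from 0.00377 to 0.222, so the fit with the animal as replicate block is given beside the other.

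Named with per-library values were the genes passing at a mean of at least 5 CPM with the 10 largest fold changes in each direction, fixed ovary genes, and up to 3 members with the smallest unadjusted p below 0.05 of each of 38 gene lists (515 genes tested of 606), of which the text gives a selection. Other members of the lists are named as examples. The summed level of a list includes its members in the counts table that were too low to be tested. TRIB2 was given per library outside these rules. The members and lists were chosen with earlier results of these data known. Libraries of a group differed from each other by far more than sampling noise, so none was a duplicate. Symbols turned into dates by a spreadsheet (25) were kept as listed. Of all gene rows 14017 (85.8%) matched a RefSeq symbol, and since its assembly differs from the study's, no positions are given. Alternatives were DESeq2 1.42.0, limma 3.58.1 voom, other scaling, filters and thresholds, age as covariate, BF_1816 kept, and each library left out. The tests were tested on simulated data with known changes. These were planted in genes with a mean above 1 CPM. Each gene had the same base mean in all groups and tissues, and no library was made to stand apart. The recovered shares therefore hold for such data only. In ovary 65% of log2 changes of 1 and 94% of log2 changes of 2, in either direction, were recovered at the threshold. For the difference from adrenal these were 50% and 86%, and for that from testis 28% and 87%, so many smaller differences would be missed.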

Additional observations from a re-analysis of the deposited data

Results flagged for a closer look

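Among 43 genes examined in each of the 2 ovary groups (86 comparisons), 5 had a library far from the others of its group by Dixon's criterion, which chance alone meets about 1 time in 20. They were CYP19A1 in NF, at 0.0604 CPM in NF_3439 and 0 in the rest, KCNK2 in NF, at 7.99 CPM in NF_0525, GREB1 in BF, at 15.7 CPM in BF_6841, AMHR2 in BF, at 34.0 CPM in BF_6382, and NR5A2 in NF, at 35.1 CPM in NF_0525.

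Status effects that differed between ovary and adrenal of the same females, as log2 differences with edgeR's adjusted p, were 5.10 for INHA (3.28e-08), 3.19 for KCNK2 (0.00124), 3.36 for SERPINE2 (5e-05) and -1.12 for EPHX1 (0.00334). With the animal as replicate block INHA and SERPINE2 still passed, while KCNK2 (adjusted p = 0.0144) and EPHX1 (adjusted p = 0.0104) did not. Against testis they were 9.00 for GLDN, 5.27 for INHA, 3.06 for INHBA, 3.26 for KCNK2, 3.33 for CA3, 2.94 for SERPINE2, -1.77 for EPHX1, -1.83 for C4orf19, -3.43 for CFD, -3.01 for SNTB1, -3.06 for SOD3 and -3.82 for QPRT, with adjusted p between 2.87e-08 (INHA) and 0.00613 (INHBA).

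The ovary library BF_1816, left out of the main comparisons, exceeded the highest of the 11 libraries used by more than 2-fold in 6 of the 43 genes. These were STAR, which carries cholesterol into mitochondria, at 25550 CPM, the activin-binding protein FST at 765.1 CPM, PRDX2 at 754.2 CPM, CYP19A1 at 334.6 CPM, the receptor KIT at 151.6 CPM and the progesterone receptor PGR at 33.7 CPM. Its median correlation with the other ovary libraries was 0.899, against 0.939 to 0.964 for the libraries used. In 10 of the 46 genes higher and 2 of the 15 genes lower in the BF ovaries used, BF_1816 did not lie beyond the NF range. KCNK2 was at 1.44 CPM, DLX5 at 1.10 CPM and CLEC14A at 5.14 CPM in BF_1816, each below every NF ovary.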

How the results depend on the processing

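In ovary, 61 genes passed (46 higher and 15 lower in BF). DESeq2's Wald test gave 507 (295 and 212), among them all 61. An adjusted p below 0.05 gave 342 (215 and 127), keeping BF_1816 gave 39 (27 higher), and leaving out NF_3439 and NF_4060 together, chosen after seeing the data, gave 143 (78 and 65). Leaving out 1 library gave 17 to 115 genes (13 to 84 higher, 3 to 39 lower). RLE scaling, no filter, a stricter filter, voom, no robust step and age as covariate gave 48 to 60 genes. The difference from adrenal, 17 genes (12 and 5), became 160 (103 and 57) with DESeq2, 9 (6 and 3) with BF_1816 kept and 7 (4 and 3) with the replicate block, and ran from 5 to 62 (4 to 37 and 1 to 25) with 1 female left out. The difference from testis, 92 genes (44 and 48), became 593 (233 and 360) with DESeq2 and ran from 34 to 199 (21 to 94 and 13 to 131) with 1 animal left out. The causes were not tested. Of 1639 values of 82 genes under 20 alternatives, 1274 kept direction and side of the threshold, 356 no longer passed, 7 newly passed and 2 reversed, namely STAR at 0.74 with BF_1816 kept (otherwise -1.67) and ESR2 at -0.059 without NF_3439 and NF_4060 (otherwise 0.11). Of the 61 genes, 11 passed in all 11 fits with a library left out and in 8 other planned fits. With 5 and 6 libraries, effects spread over few animals can be missed.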

Other observations

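Gene groups of metabolism and growth were described in the same ovaries. All 20 tested genes of fatty acid oxidation had negative fold changes, 0 passed, and 0 were higher and 10 lower at unadjusted p below 0.05 (median log2 fold change -0.33). Over all 13717 tested genes, 7416 had negative fold changes. The number lower was 5 without BF_4121 and 6 without NF_3605. Their sum was 1589 to 1850 CPM in BF ovaries and 1634 to 2813 CPM in NF ovaries. HADHB, a subunit of the mitochondrial trifunctional protein, stood at log2 fold change -0.36, adjusted p = 0.0473 and ACADL at log2 fold change -0.50, adjusted p = 0.0468 by edgeR. Of 13 tested genes of insulin-like growth factor signalling 0 passed and 6 were higher and 1 lower at unadjusted p below 0.05 (median log2 fold change 0.24). IGF1, which promotes growth of follicles, was at log2 fold change 0.99, adjusted p = 0.0468, and the binding protein IGFBP6 at log2 fold change -0.68, adjusted p = 0.0116. Of 22 WNT and R-spondin genes 0 passed and 1 was higher and 6 lower at unadjusted p below 0.05 (median log2 fold change -0.20). RSPO1, needed for ovarian development in mouse, stood at log2 fold change -1.14, adjusted p = 0.0367, with no overlap between groups.

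Of 14 tested ovulation genes 0 passed and 5 were higher and 1 lower at unadjusted p below 0.05 (median log2 fold change 0.27), and EREG was at 0. PTGS1, the constitutive cyclooxygenase, stood at log2 fold change -2.45, adjusted p = 0.0428 among 13 prostaglandin genes, of which 0 passed and 2 were higher and 2 lower at unadjusted p below 0.05 (median log2 fold change -0.01). Of 27 cell cycle genes 0 passed and 0 were higher and 1 lower at unadjusted p below 0.05 (median log2 fold change -0.08). The remaining lists had 0 passing as well. Of 14 Notch genes 1 was higher and 1 lower at unadjusted p below 0.05 (median log2 fold change -0.18). Of 19 KIT, GDNF and EGF ligands and receptors 1 was higher and 2 lower at unadjusted p below 0.05 (median log2 fold change 0.02). Of 14 heat shock and unfolded protein genes 1 was higher and 2 lower at unadjusted p below 0.05 (median log2 fold change 0.03). Of 10 interferon-induced genes 0 were higher and 0 lower at unadjusted p below 0.05 (median log2 fold change -0.08).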
